A study of Rattus norvegicus with 9 samples.

Results

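The comparison reported here set all injured lumbar spinal cords against all sham cords. Its members were the 6 RNA samples from rats with spared nerve injury, out of 9 samples in the series, and the remaining 3 samples were the sham controls. The question was which transcripts differed after nerve injury whether or not the rats were also given drugs. All rats were male wild-type Sprague Dawley, and RNA came from the ipsilateral side of the lumbar cord. In the SNI group (n = 3) the common peroneal and tibial nerves were ligated and cut, the sural nerve was spared, and saline was given by mouth. The PLM group (n = 3) had the same injury and received paeoniflorin, a monoterpene glycoside of peony root, with liquiritin, a flavonoid glycoside of liquorice root. The labels give paeoniflorin as 20.65 mg/ml and liquiritin as 3.98, 3.99 and 3.100 mg/ml for PLM replicates 1, 2 and 3. The sham group (JA, n = 3) had the nerve exposed without ligation or cutting and received saline. Tissue was taken 21 days after surgery, so the early response to axotomy was not sampled, and a sham rat still carries a skin and muscle wound. The labels count the samples of a group as biological replicates, and do not give the time of day of collection. Since no sham group received the drugs, the PLM difference from sham joins injury and drug, which cannot be told apart there. Injury is seen here only against 1 set of 3 sham cords.

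Cutting a peripheral nerve disconnects the peripheral axons of sensory neurons, whose central branches end in the dorsal horn, and of motor neurons, whose cell bodies lie in the ventral horn. Axotomised neurons are known to switch on regeneration genes such as Atf3 and Gap43, and microglia and astrocytes near their terminals and cell bodies are known to become reactive, with complement and antigen presentation genes among those induced. Neuropathic pain is also linked to the balance of excitatory and inhibitory transmission in the dorsal horn and to ion channels that set neuronal firing.

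Expression was given as TPM, a unit of transcript abundance in which each value is divided by transcript length and every library has an equal total. The table listed 34890 loci, of which 15503 averaged 1 TPM or more across all 9 samples and were tested. Marker genes showed spinal cord tissue in every sample, with summed oligodendrocyte markers at 48290 to 58630 TPM and summed neuron markers at 4979 to 8993 TPM. The posterior patterning gene Hoxd9 lay between 16.61 and 23.69 TPM. Mitochondrially encoded protein genes took 23.65% to 26.09% of all TPM in the SNI samples, 25.32% to 32.82% in JA and 31.27% to 32.79% in PLM. The median log2(TPM + 1) moved the other way, at 3.47 to 3.53 in SNI, 3.30 to 3.46 in JA and 3.18 to 3.30 in PLM, so every sample was centred on its median before groups were compared. Pearson's r between samples, across genes, was 0.952 to 0.963 for pairs of injured cords and 0.946 to 0.966 for a sham with an injured cord. Sham cords were the most variable group, with a median within-group SD of 0.158 log2 units against 0.131 in SNI and 0.113 in PLM.

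The sham cords differed from one another in summed cell type markers. Summed Schwann cell markers, which mark peripheral nerve root, were 715.9, 142.6 and 7991 TPM in JA 1, 2 and 3, 601.4, 4567 and 1635 TPM in SNI, and 293.7, 971.9 and 3360 TPM in PLM. For these genes the range within the sham group was wider than any difference between group means. The list of 11 blood cell genes tested also varied within groups, with sums of 5945, 5693 and 12340 TPM in JA and 4376 to 11840 TPM in the injured cords. In bulk tissue, fewer cells of a type and less RNA per cell cannot be told apart.

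**Figure D1:**
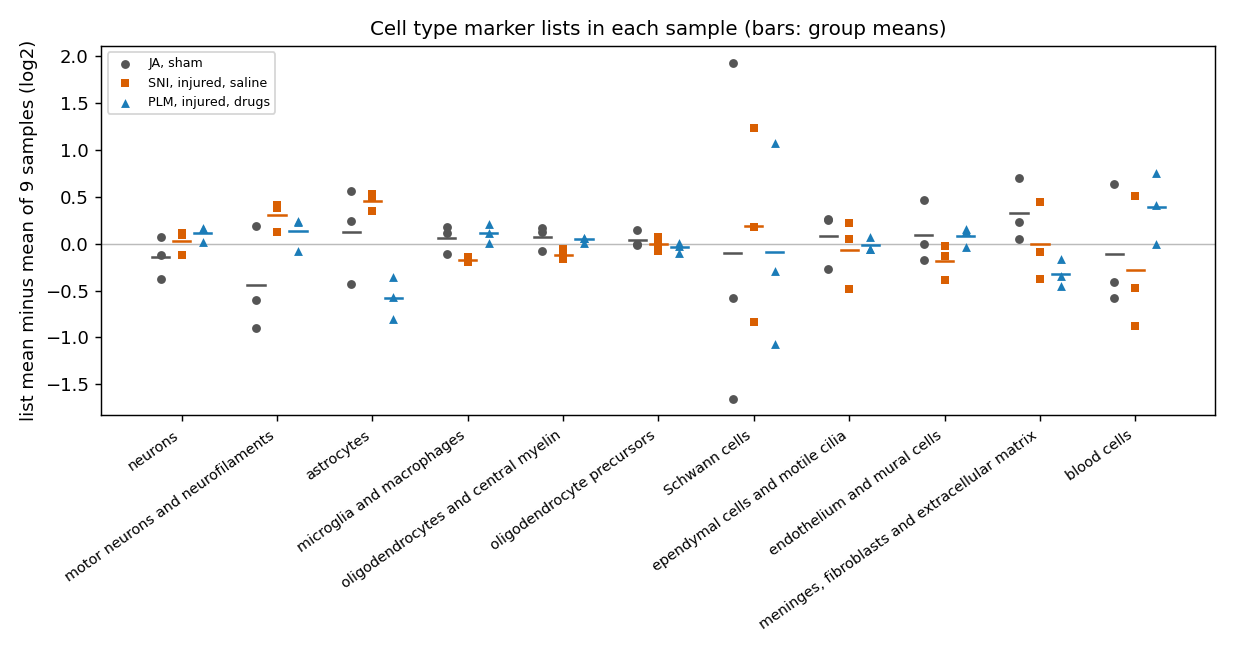
Mean median-centred log2(TPM + 1) of each cell type marker list in each of the 9 samples, minus the mean of the 9 samples. Points are samples, short bars are group means, and the Schwann cell list has the widest spread, with the highest and the lowest sample both in the sham group.

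No locus passed an adjusted p of 0.05 with the same sign in both injured groups. In limma with a variance trend, contrasting the mean of SNI and PLM with JA, this was 0 of 15503 loci (0%), and the smallest Benjamini-Hochberg adjusted p was 0.561. Without adjustment, 579 loci (3.73% of those tested) were higher and 557 (3.59%) lower at p under 0.05 with the same sign in both injured groups. The study called genes in DESeq2 at an unadjusted p under 0.05 and a log2 fold change beyond 1 in either direction. At these thresholds in limma on log2(TPM + 1), with the same sign in both injured groups, 28 loci (0.181%) were higher and 38 (0.245%) lower. After centring, all 6 injured samples lay above all 3 sham samples at 203 loci (1.31%) and below them at 216 loci (1.39%). For a single locus, such a separation allows an exact two-sided permutation p of 0.0119 at best over the 84 ways to choose 3 of 9 samples. If all these ways were equally likely, 1 in 84 loci, a share of 0.0119, would separate in a given direction. The shares of 1.31% and 1.39% are near it. The median log2 fold change over all loci was 0.01. The values that follow are therefore descriptions of levels, and none of the genes named passed the adjusted threshold.

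Among loci with no overlap after centring and a log2 fold change of at least 0.5, 13 were higher in the injured cords. They included Coa6, an assembly factor of cytochrome c oxidase, Gadd45b, a stress-inducible regulator of MAP kinase signalling and DNA demethylation, Plaat1, a phospholipase and acyltransferase, Lctl, a klotho-family glycosidase homologue, the kelch protein gene Klhdc1 and the splicing factor copy Wbp11l1. The other 7 are gene models known only by clone names.

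Coa6 was 17.95, 13.22 and 7.93 TPM in JA, 23.58, 36.49 and 25.78 TPM in SNI and 30.05, 52.43 and 25.03 TPM in PLM. Every injured cord was above the highest sham, and the log2 fold change was 1.26 (SE 0.28, limma adjusted p = 0.574), at 1.00 in SNI and 1.51 in PLM. This was the largest difference among these 6 genes.

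Plaat1 measured 2.93, 2.10 and 2.45 TPM in the sham cords, 3.66, 3.42 and 4.15 TPM in SNI and 3.85, 4.76 and 4.56 TPM in PLM. Its spread within each group was small, and the log2 fold change was 0.54 (SE 0.10, limma adjusted p = 0.561). Gadd45b measured 9.62, 11.08 and 10.83 TPM in JA, 13.54, 17.20 and 23.54 TPM in SNI and 13, 12.32 and 15.61 TPM in PLM, a log2 fold change of 0.52 (SE 0.17). The lowest injured value was 12.32 TPM, just above the highest sham value of 11.08 TPM.

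Lctl was low in sham cords, at 0.45, 0.43 and 0.12 TPM. It reached 1.70, 1.83 and 1.00 TPM in SNI and 1.5, 2.33 and 0.85 TPM in PLM. Klhdc1 stood at 13.96, 14.57 and 12.45 TPM in JA, with 22.75, 22.27 and 16.74 TPM in SNI and 24.61, 32.14 and 14.94 TPM in PLM. Both genes were higher in all 6 injured cords, by 0.91 (SE 0.22) and 0.63 (SE 0.22) on the log2 scale, although the lowest PLM sample for Klhdc1 was only just above the shams. Wbp11l1, whose reads may be shared with its parent gene, had a log2 fold change of 0.61 (SE 0.13), from 30.93 to 44.99 TPM in JA to 47.53 to 68.33 TPM in the injured cords.

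Of the unnamed gene models, AABR07032904.1 had the largest fold change, 1.80 on the log2 scale (SE 0.36). It was 1.23, 1.23 and 1.29 TPM in JA, 9.41, 1.83 and 5.83 TPM in SNI and 7.77, 7.57 and 14.00 TPM in PLM. SNI 2 was close to the sham level. AABR07035539.1 (log2 fold change 1.68), AABR07006049.1 (0.74), AABR07035955.1 (0.67), AABR07044302.1 (0.61), AC119762.6 (0.59) and AABR07017145.2 (0.50) followed, and AABR07035539.1 was at 0 TPM in JA 2.

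On the lower side 21 loci met the same conditions, and the 15 with the smallest p-values were named. They included Eln, the elastin gene, Loxl1, which cross-links elastin, Bmp6, a bone morphogenetic protein ligand, Igfbp3, which binds insulin-like growth factors, Clec3b, which encodes the plasminogen-binding protein tetranectin, and Cpxm2, a secreted carboxypeptidase-like protein. The others were the scaffold gene Fhl2, the small membrane protein genes Smim5 and Emp3, the myeloid receptor gene Cd300le, the asialoglycoprotein receptor subunit Asgr1, the secreted peptide gene Ecrg4, the ciliary transport gene Ttc21b, the histone gene Hist2h2aa3 and the model AABR07041963.1.

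After AABR07041963.1 (-1.44 on the log2 scale), Igfbp3 showed the largest difference of the named lower genes, at 7.47, 11.18 and 6.04 TPM in JA, 4.18, 4.39 and 5.61 TPM in SNI and 2.15, 1.77 and 3.18 TPM in PLM. Its log2 fold change was -1.05 (SE 0.19, limma adjusted p = 0.561), and the PLM cords lay below the SNI cords. Eln measured 12.90, 21.42 and 15.34 TPM in JA, 7.57, 12.16 and 11.09 TPM in SNI and 6.55, 7.59 and 7.94 TPM in PLM. No injured cord reached the lowest sham value, and the log2 fold change was -0.84 (SE 0.19), with similar values of -0.76 in SNI and -0.92 in PLM.

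Bmp6 was 10.55, 9.43 and 10.55 TPM in JA, 6.53, 8.76 and 8.98 TPM in SNI and 4.27, 4.13 and 5.23 TPM in PLM. The 3 sham values were close together, and the log2 fold change was -0.66 (SE 0.12). Loxl1 measured 2.21, 1.77 and 1.89 TPM in JA, 1.19, 1.47 and 1.56 TPM in SNI and 0.70, 0.71 and 0.74 TPM in PLM. Its log2 fold change of -0.54 (SE 0.12) was -0.42 in SNI and -0.66 in PLM.

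Smim5 had the smallest unadjusted p of the named lower genes, at 16.56, 17.82 and 18.57 TPM in JA, 12.41, 12.93 and 9.76 TPM in SNI and 8.98, 11.43 and 10.47 TPM in PLM. Fhl2, which encodes a LIM-domain scaffold of muscle and fibroblast-like cells, was 11.84, 8.33 and 8.93 TPM in JA, 5.32, 7.16 and 6.51 TPM in SNI and 5.42, 5.08 and 5.15 TPM in PLM. Both differed to nearly the same extent in SNI (-0.69 and -0.66 on the log2 scale) and in PLM (-0.60 and -0.64). The SEs of their fold changes, -0.64 for Smim5 and -0.65 for Fhl2, were 0.10 and 0.12.

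Ttc21b measured 4.53, 4.68 and 6.14 TPM in JA, 3.48, 2.67 and 2.26 TPM in SNI and 3.00, 2.14 and 2.08 TPM in PLM, a log2 fold change of -0.77 (SE 0.17). Emp3 lay at 13.75 to 16.81 TPM in JA and at 8.32 to 12.94 TPM in the injured cords (log2 fold change -0.56, SE 0.13). In Cd300le, Clec3b, Cpxm2, Asgr1 and Ecrg4 the log2 fold change ran from -0.53 to -0.73, and 5 of 6 injured cords lay below every sham in TPM as deposited, all 6 only after centring. Hist2h2aa3 (-0.57) belongs to a family of near-identical histone genes, so its values are uncertain. AABR07041963.1 was at 0 TPM in all 3 PLM cords and at 1.12, 1.09 and 0.93 TPM in SNI, against 4.31, 1.04 and 4.43 TPM in JA. In TPM 2 SNI cords were above JA 2, and the groups separated only after centring.

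None of these 28 genes differed between PLM and SNI at a limma adjusted p of 0.05. The differences closest to that threshold were those of Plaat1 (0.43 higher in PLM on the log2 scale, adjusted p = 0.1755) and Bmp6 (0.46 lower, adjusted p = 0.211).

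**Figure D2:**
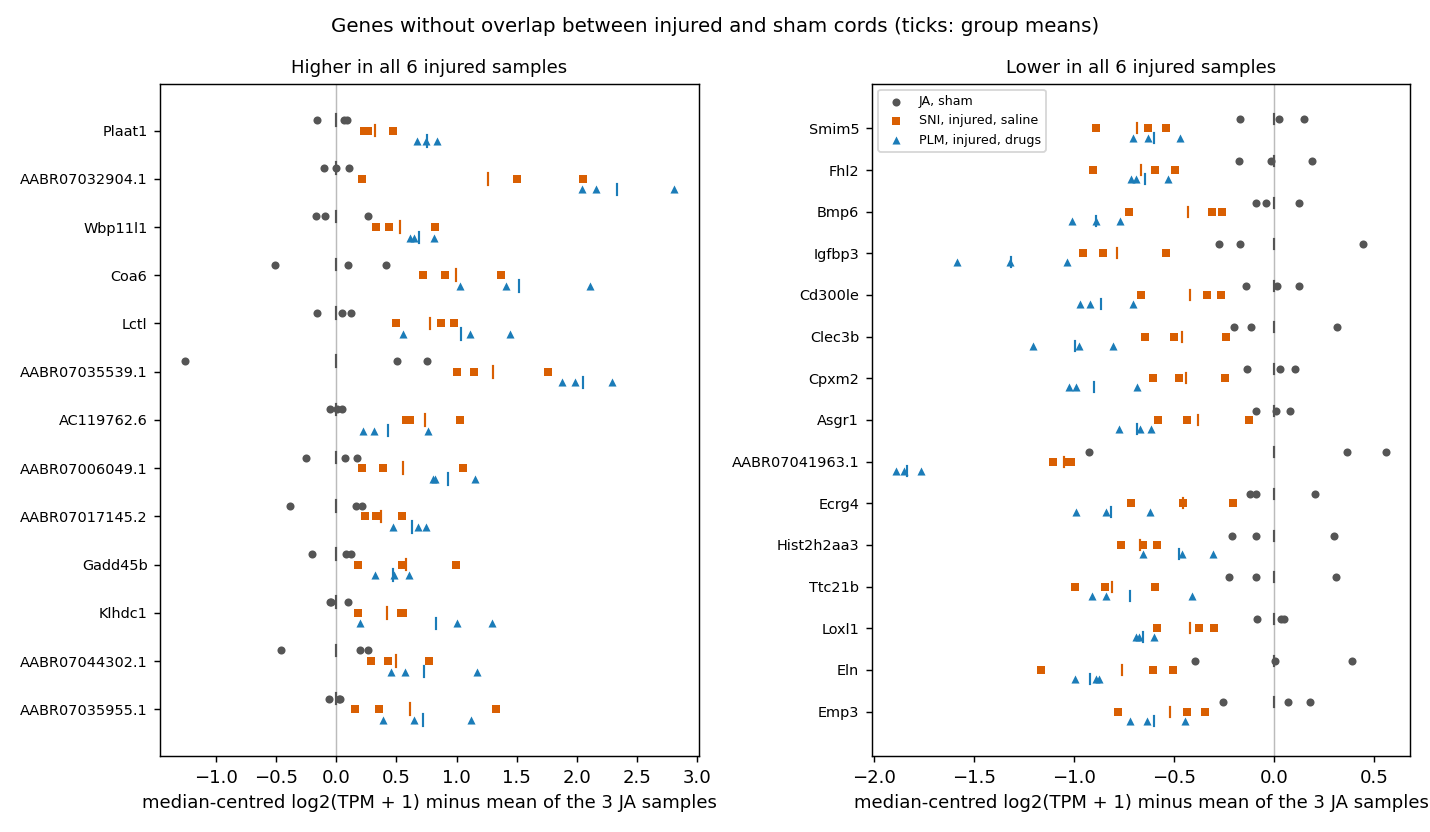
Median-centred log2(TPM + 1) of the 28 named genes in each sample, minus the mean of the 3 sham samples, with points for samples and ticks for group means. In both panels the 6 injured samples lie on one side of the sham samples, as the choice of genes requires, and Igfbp3, Bmp6 and Clec3b lie further from sham in PLM than in SNI.

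Gene lists were then read across the same contrast, and each list is given with its count at an unadjusted p under 0.05 beside the shares of 3.73% higher and 3.59% lower over all loci, and with its median beside 0.01 for all loci. Counts moved with the sham cord left out, and over all loci 6.06% were higher and 4.63% lower at that p without JA 1, 1.81% and 2.54% without JA 2, and 5.17% and 4.56% without JA 3. Without 1 SNI or PLM cord, 2.65% to 4.5% of all loci were higher and 2.81% to 3.79% lower. The motor neuron and neurofilament genes had the highest median, 0.69, and the meningeal and extracellular matrix genes the lowest, -0.52. Reactive astrocyte, interferon and complement lists, which an injury response is known to raise, had negative medians at day 21.

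**Figure D3:**
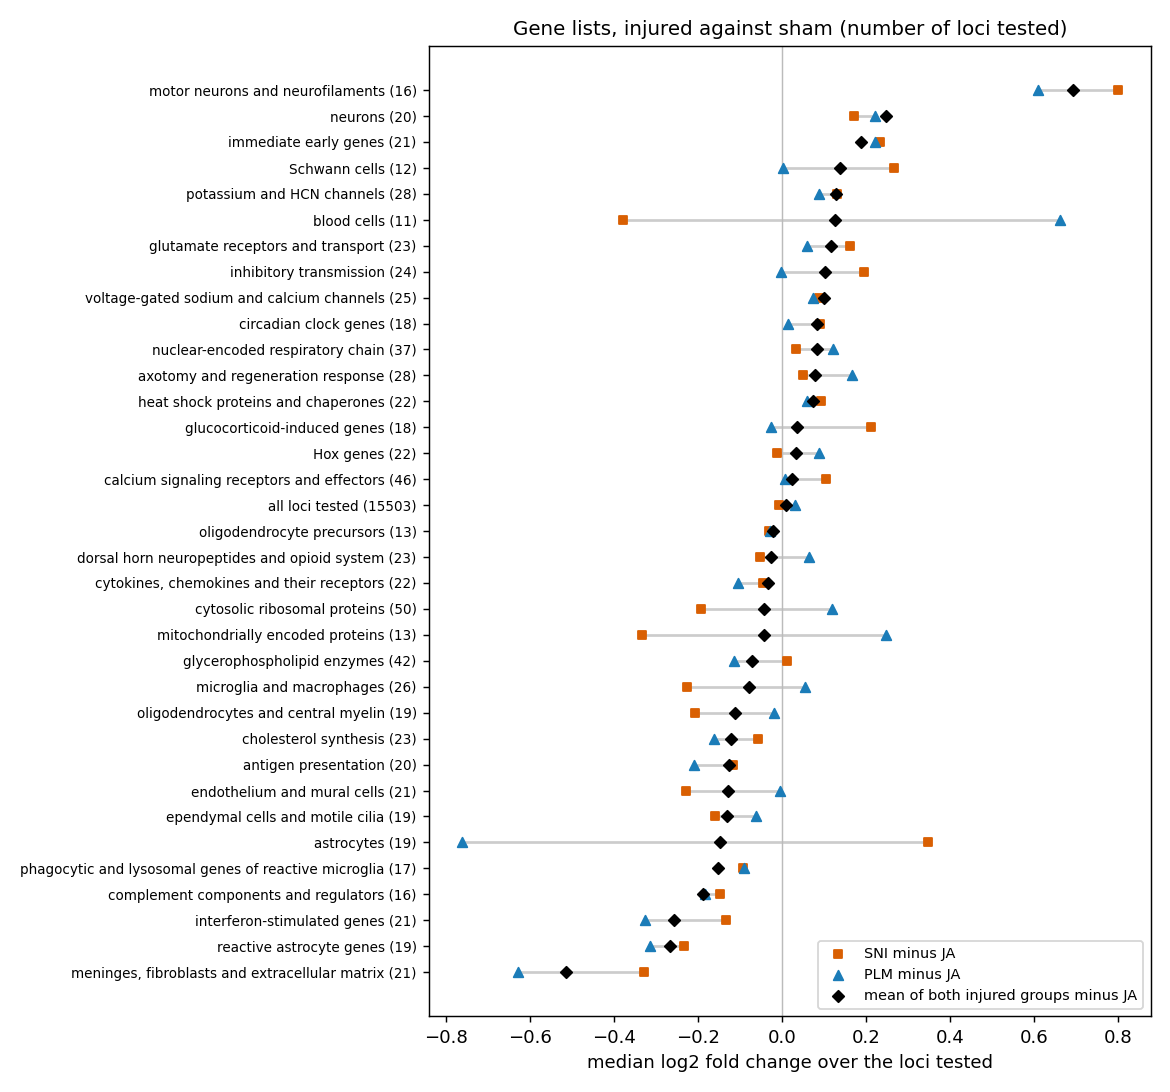
Median log2 fold change against sham of each of the 34 gene lists and of all 15503 loci tested, for the mean of both injured groups (black diamonds), SNI (orange squares) and PLM (blue triangles). Motor neuron genes are at the top with a median of 0.69, matrix genes at the bottom with -0.52, and astrocyte genes have SNI and PLM on opposite sides of 0.

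Cholinergic motor neuron and neurofilament genes were higher on average in the injured cords at 16 of 16 members tested, and 12 of 16 had an unadjusted p under 0.05. The medians were 0.80 in SNI and 0.61 in PLM. Slc5a7, the choline transporter of cholinergic neurons, was 6.96, 2.63 and 1.79 TPM in JA, 9.46, 8.69 and 10.43 TPM in SNI and 6.19, 6.84 and 5.28 TPM in PLM. JA 1 lay within the injured range, and only JA 2 and JA 3 were below it. Nefm, the medium neurofilament subunit, was 1533.56, 673.74 and 725.16 TPM in JA, 1864.48, 1736.25 and 2134.34 TPM in SNI and 1404.65, 1614.35 and 1315.62 TPM in PLM. Chat, which makes acetylcholine, was 5.36, 2.63 and 1.25 TPM in JA, 8.01, 3.93 and 7.53 TPM in SNI and 3.76, 4.94 and 3.82 TPM in PLM. The same arrangement of the sham samples is seen in both, and the log2 fold changes were 1.00 (SE 0.26) for Slc5a7, 0.87 (SE 0.22) for Nefm and 0.71 (SE 0.30) for Chat. Leaving out 1 sample moved them between 0.722 and 1.39 for Slc5a7, 0.656 and 1.2 for Nefm and 0.385 and 1.05 for Chat.

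Calcb, which encodes the beta form of calcitonin gene-related peptide, made by motor neurons and by sensory afferents, had the largest difference of the list at 1.2 (SE 0.32). It measured 10.41, 3.84 and 2.38 TPM in JA, 14.19, 13.08 and 16.01 TPM in SNI and 11.19, 11.87 and 7.77 TPM in PLM. Esrrg, a nuclear receptor gene of gamma motor neurons, was the only list member without overlap after centring, with a log2 fold change of 0.38 (SE 0.11). It was 4.48, 2.98 and 4.13 TPM in JA, 6.42, 6.02 and 5.11 TPM in SNI and 4.22, 4.91 and 5.21 TPM in PLM.

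The list rested on the low values of JA 2 and JA 3. At 11 of 16 members these 2 sham cords were below all 6 injured cords while JA 1 lay within the injured range, an arrangement present at 4.81% of all loci. Without JA 3 the median was 0.45, and 5 members (31.2%, against 5.17% of all loci) had a p under 0.05. Without JA 2 it was 0.61, again with 5 members (31.2% against 1.81%), and without JA 1 it was 1.03 with 14 members (87.5% against 6.06%). Summed motor neuron markers were 4008, 1847 and 1823 TPM in JA, 3966 to 5219 TPM in SNI and 3154 to 3885 TPM in PLM. Whether the share of ventral horn in each piece of tissue took part was not tested.

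**Figure D4:**
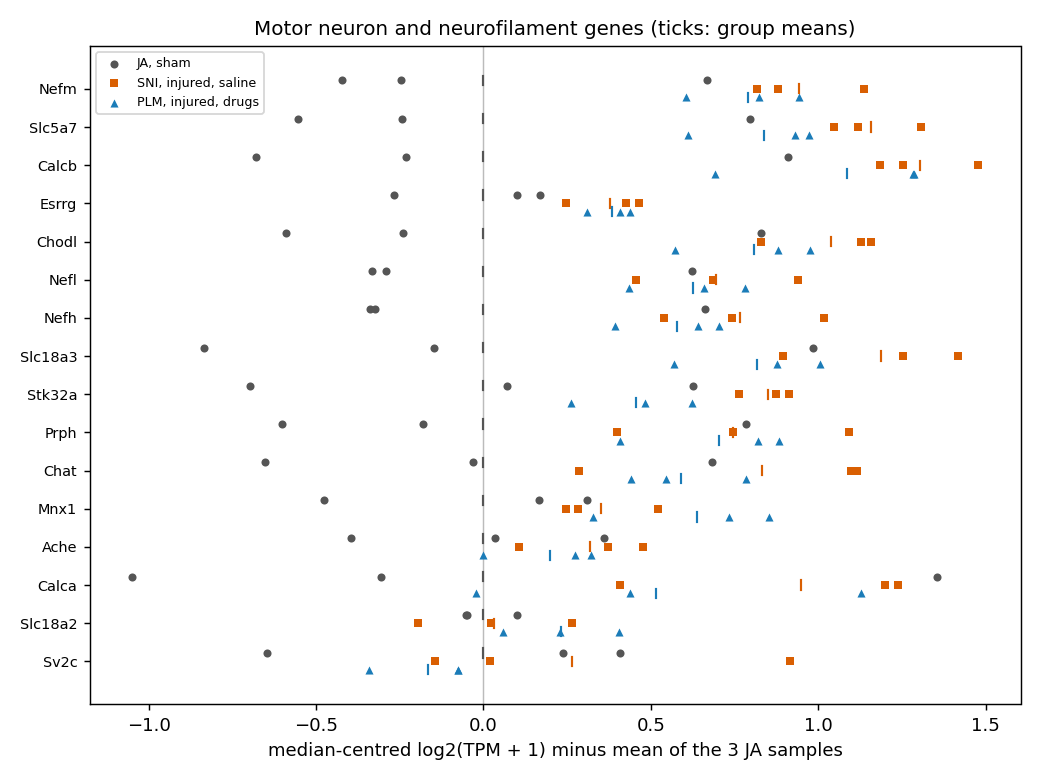
Median-centred log2(TPM + 1) of the 16 motor neuron and neurofilament genes tested, minus the mean of the 3 sham samples, with points for samples and ticks for group means. In most rows 1 sham sample, JA 1, lies among the injured samples, and the other 2 lie to their left.

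General neuronal markers were higher at 19 of 20 members, with a median of 0.25 and 4 members at an unadjusted p under 0.05. Snap25, a synaptic vesicle fusion protein gene, was 980.71, 605.82 and 885.99 TPM in JA, 1100.39, 983.22 and 1120.68 TPM in SNI and 920.31, 1003.68 and 1006.61 TPM in PLM. Its log2 fold change was 0.34 (SE 0.14), and JA 2 held the low value. Without JA 2 the list median was 0.09 and 0 of 20 members had a p under 0.05, in a setting where the share over all loci also dropped, to 1.81%. Without JA 1 there were 10 such members. Nefl was higher by 0.66 (SE 0.22), Tubb3, a neuronal tubulin gene, by 0.50 (SE 0.22) and Stmn2, a regulator of axonal microtubules, by 0.43 (SE 0.16).

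Channels and receptors were higher on average to a smaller degree. Potassium and HCN channels had a median of 0.13, with 22 of 28 members higher and 5 at an unadjusted p under 0.05. Kcnj3, a G protein-gated inward rectifier subunit, was 4.79, 3.23 and 3.63 TPM in JA, 6.73, 5.27 and 6.21 TPM in SNI and 4.14, 4.36 and 4.88 TPM in PLM. After centring its groups did not overlap, and its log2 fold change was 0.36 (SE 0.10). Kcnk9, a leak channel gene, was higher by 0.52 (SE 0.17). Without JA 2, 1 of 28 members (3.57%, against 1.81% of all loci) had a p under 0.05, and without JA 1 9 of 28 (32.1% against 6.06%).

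Of the sodium and calcium channel genes, 21 of 25 were higher, 2 at an unadjusted p under 0.05, and the median of 0.10 came to 0.02 without JA 2. Without JA 1, 3 members (12%, against 6.06% of all loci) were higher at that p. None was higher at that p when JA 2, SNI 1, SNI 3 or any 1 PLM cord was left out. Scn9a, the Nav1.7 channel gene of sensory and motor neurons, was 23.55, 13.04 and 26.42 TPM in JA against 26.92 to 28.07 TPM in the 6 injured cords. All 3 sham cords were below the injured cords in TPM, JA 2 by far the most, and 3 of 6 injured cords were above every sham after centring (log2 fold change 0.44, SE 0.19). With 1 sample left out, this fold change ran from 0.14 to 0.66. Scn4b, a channel beta subunit gene, was higher by 0.43 (SE 0.18).

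Inhibitory transmission genes were higher at 19 of 24 members, 5 of them at an unadjusted p under 0.05, with a median of 0.10. The median was 0.19 in SNI and -0.00 in PLM, where 12 of 24 members were higher, and without JA 2 it was 0.06 with 1 member at that p. Glrb, the beta subunit that anchors glycine receptors at synapses, was 57.50, 38.55 and 49.83 TPM in JA, 80.60, 66.71 and 67.94 TPM in SNI and 54.43, 61.16 and 63.34 TPM in PLM. No centred values overlapped, and the log2 fold change was 0.44 in SNI and 0.43 in PLM (mean 0.44, SE 0.11, limma adjusted p = 0.596). Slc6a5, the neuronal glycine transporter, was higher by 0.31 (SE 0.10).

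Pvalb, which marks a class of interneurons and proprioceptive afferents, was 168.98, 174.37 and 175.92 TPM in JA, 206.86, 162.35 and 232.29 TPM in SNI and 245.69, 246.47 and 223.71 TPM in PLM. SNI 2 lay below every sham, and the log2 fold change was 0.07 in SNI and 0.59 in PLM.

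For glutamate receptors and transport the median was 0.12, with 17 of 23 members higher and 2 at an unadjusted p under 0.05. These were Gria4, an AMPA receptor subunit (0.30, SE 0.12), and Grm8, a presynaptic metabotropic receptor (0.27, SE 0.09), and neither overlapped between groups after centring. Gria4 was 34.09, 21.43 and 29.70 TPM in JA, 39.66, 35.14 and 34.88 TPM in SNI and 30.55, 32.54 and 35.05 TPM in PLM. Without JA 2 the list median was 0.06 with 0 members at that p, and without JA 1 it was 0.16 with 6 members.

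The axotomy and regeneration list had a median of 0.08, with 20 of 28 members higher and 4 higher and 2 lower at an unadjusted p under 0.05. Without JA 2 the median was 0.02, with 0 higher and 2 lower at that p. Without PLM 1 the counts were also 0 higher and 2 lower (0% and 7.14%, against 2.74% and 3.22% of all loci). Atf3, the transcription factor switched on in axotomised neurons, was 1.81, 1.66 and 5.39 TPM in JA, 4.44, 9.90 and 5.80 TPM in SNI and 2.87, 1.77 and 3.18 TPM in PLM. Only 2 injured cords exceeded JA 3, and the log2 fold change of 0.50 (SE 0.35) was 0.90 in SNI and 0.10 in PLM. Gap43, a growth cone protein gene, was 95.89 to 115.79 TPM in JA and 101.74 to 118.83 TPM in the injured cords, a log2 fold change of 0.05 (SE 0.09). The neuropeptide genes Gal (0.02, SE 0.14), Npy (-0.00, SE 0.12) and Vip (0.08, SE 0.15) had differences smaller than their errors, and Sprr1a stayed at 0 to 0.38 TPM, below the filter.

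Hspb1, a small heat shock protein gene of injured neurons, was higher by 0.55 (SE 0.21), at 131.16, 86.80 and 59.06 TPM in JA, 140.26, 126.25 and 184.79 TPM in SNI and 113.44, 125.53 and 98.98 TPM in PLM. Nrep, a regeneration-associated protein gene, was lower without overlap after centring (-0.26, SE 0.08), and so was the tubulin gene Tubb2b (-0.26, SE 0.09).

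Microglial markers were lower on average at 20 of 26 members, with a median of -0.08, and 1 higher and 2 lower at an unadjusted p under 0.05. The median was -0.23 in SNI, where 2 of 26 were higher, and 0.06 in PLM, where 16 of 26 were higher. Without JA 1 it was -0.16 with 6 lower members at that p, and without JA 2 -0.04 with 1 lower. Aif1, which encodes the microglial protein IBA-1, was 60.46, 90.16 and 86.42 TPM in JA, 63.70, 61.49 and 60.23 TPM in SNI and 76.13, 62.38 and 73.28 TPM in PLM. JA 1 was at the level of the injured cords, and the log2 fold change was -0.23 (SE 0.15), at -0.45 in SNI and -0.02 in PLM. Cx3cr1, the fractalkine receptor, was 14.35 to 22.06 TPM in JA and 15.44 to 22.29 TPM in the injured cords.

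Cd68, a lysosomal membrane protein of phagocytes, was the microglial list member without overlap. It measured 3.83, 2.97 and 4.41 TPM in JA, 2.14, 2.43 and 2.35 TPM in SNI and 2.26, 1.4 and 1.88 TPM in PLM. All injured cords were lower, by 0.63 in SNI and 0.61 in PLM on the log2 scale (SE of the mean contrast 0.15, limma adjusted p = 0.596). P2ry12, a purinergic receptor of resting microglia, was 10.61, 12.45 and 11.80 TPM in JA, 13.55, 13.86 and 13.31 TPM in SNI and 15.89, 13.26 and 17.31 TPM in PLM. In TPM every injured cord was above every sham, whereas the centred values of SNI overlapped with sham, and the log2 fold change was 0.30 (SE 0.10).

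Phagocytic and lysosomal genes had a median of -0.15, with 13 of 17 lower and 3 lower at an unadjusted p under 0.05. The median was -0.13 without JA 2, with 0 lower members at that p, and without SNI 1 it was -0.07 with 2. Igf1, a growth factor gene of reactive microglia, was 1.53, 2.36 and 2.21 TPM in JA, 1.21, 1.52 and 1.4 TPM in SNI and 0.55, 1.07 and 1.29 TPM in PLM (log2 fold change -0.49, SE 0.17). Grn, the progranulin gene, was lower by 0.20 (SE 0.07) and the cathepsin gene Ctsl by 0.15 (SE 0.07). Axl, a receptor for dying cells, was 0.04 higher in SNI and 0.53 lower in PLM on the log2 scale.

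Complement genes had a median of -0.19, with 11 of 16 lower, and 3 lower and 1 higher at an unadjusted p under 0.05. With 1 sample left out, the lower count ran from 2 without SNI 1 or PLM 2 to 5 without SNI 2 (31.2%, against 3.79% of all loci). Cfp, which encodes properdin, a stabiliser of the alternative pathway convertase, was 7.49, 10.69 and 7.80 TPM in JA, 6.53, 6.11 and 4.56 TPM in SNI and 6.49, 5.70 and 4.95 TPM in PLM. Each injured cord was below each sham in TPM and 5 of 6 after centring, and the log2 fold change was -0.52 (SE 0.15). C1r, a protease of the classical pathway, was lower by 0.49 (SE 0.11), mostly in PLM (-0.76 against -0.23 in SNI). Cd59, which blocks the membrane attack complex, was higher by 0.35 (SE 0.12). C1qa was 141.57 to 193.51 TPM in JA and 130.93 to 166.57 TPM in the injured cords, and C3 was 20.71 to 25.39 TPM in JA and 12.60 to 27.02 TPM in the injured cords, with fold changes of -0.18 (SE 0.13) and -0.32 (SE 0.20).

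Interferon-stimulated genes were lower at 18 of 21 members, 5 of them at an unadjusted p under 0.05, with a median of -0.26. Ifitm3, an antiviral membrane protein gene also made by vessels and fibroblasts, was 119.51, 74.84 and 93.96 TPM in JA, 56.04, 110.83 and 55.00 TPM in SNI and 43.00, 34.56 and 46.69 TPM in PLM. SNI 2 lay within the sham range, and the log2 fold change was -0.80 (SE 0.24). Bst2, the tetherin gene, was 56.65, 53.72 and 51.91 TPM in JA, 43.02, 52.58 and 56.59 TPM in SNI and 33.83, 28.80 and 30.94 TPM in PLM (-0.44, SE 0.11). Cxcl10, an interferon-induced chemokine gene, was 4.07 to 4.76 TPM in JA, 2.15 to 2.96 TPM in SNI and 2.28 to 3.72 TPM in PLM (-0.54, SE 0.15). Without JA 1 the list median was -0.09, with 4 lower members and 1 higher at a p under 0.05.

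Antigen presentation genes had a median of -0.13 (16 of 20 lower, 1 at an unadjusted p under 0.05), which became -0.06 without PLM 2 and -0.31 without JA 2. Psmb8, an immunoproteasome subunit gene, was the member with that p, lower by 0.34 (SE 0.13). With 1 sample left out, the lower members at that p ran from 0 without JA 1 to 4 without SNI 2 (20%, against 3.79% of all loci). The class II genes were spread widely within groups. Cd74, the invariant chain, was 80.13, 34.86 and 75.49 TPM in JA and 28.72 to 114.09 TPM in the injured cords (0.01, SE 0.40), and RT1-Da, a class II alpha chain, was 7.22 to 19.63 TPM in JA and 5.39 to 21.49 TPM in the injured cords (-0.13, SE 0.38).

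Cytokine and chemokine genes had a median of -0.03, and 2 of 22 were lower at an unadjusted p under 0.05. Osmr, the oncostatin M receptor gene, did not overlap after centring, at 1.71, 2.68 and 1.44 TPM in JA, 1.36, 1.59 and 1.48 TPM in SNI and 0.91, 1.11 and 1.01 TPM in PLM (-0.38, SE 0.15). The chemokine receptor gene Cxcr4 was lower by 0.29 (SE 0.12). No member was higher at that p. The median was -0.12 without JA 1 and -0.01 without JA 2, and without SNI 1 no member was lower at that p and 1 was higher.

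Astrocyte markers averaged lower in 19 of 19 members, 2 of them at an unadjusted p under 0.05, yet this average joined opposite values, and only 3 had the same sign in both injured groups. The list median was 0.35 in SNI and -0.76 in PLM against sham, and at 18 of 19 genes all PLM cords were below all SNI cords, as at 9.59% of all loci. Without JA 1 the median over both injured groups turned to 0.12 with 14 of 19 higher, and without JA 3 it was -0.47. Gfap, the intermediate filament gene of reactive astrocytes, was 740.96, 706.62 and 374.44 TPM in JA, 585.59, 617.16 and 560.70 TPM in SNI and 259.01, 248.19 and 216.45 TPM in PLM. All SNI values lay between JA 3 and the other sham cords, all PLM values below sham, and the log2 fold change of -0.63 (SE 0.19) was -0.11 in SNI and -1.14 in PLM. The difference between PLM and SNI was -1.03 (limma adjusted p = 0.134). S100b followed the same order with -0.09 in SNI and -0.50 in PLM, and the water channel gene Aqp4 had 0.09 and -0.85. Summed astrocyte markers were 8741, 7538 and 5349 TPM in JA, 7705 to 8995 TPM in SNI and 4191 to 4883 TPM in PLM, so sham cords themselves spanned most of the range.

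Genes induced in reactive astrocytes had a median of -0.27 with 15 of 19 lower, 3 of them at an unadjusted p under 0.05, and 1 higher at that p, which was Hspb1. The median was -0.10 without JA 3, and -0.14 without SNI 1 with 1 lower member at that p. Lcn2, a secreted iron-siderophore binding protein gene of reactive astrocytes, was 11.56, 7.81 and 7.21 TPM in JA, 6.69, 3.82 and 4.29 TPM in SNI and 6.11, 4.31 and 8.63 TPM in PLM (-0.59, SE 0.21). In 5 of 6 injured cords it was below every sham. Emp1, an epithelial membrane protein gene, was lower by 0.42 (SE 0.18).

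Genes of calcium signalling and astrocyte receptors that the study followed by quantitative PCR showed the same opposition of SNI and PLM. Agt, which encodes angiotensinogen and is made by astrocytes in the cord, was 403.19, 290.34 and 145.87 TPM in JA, 412.92, 377.10 and 366.47 TPM in SNI and 164.98, 137.42 and 113.91 TPM in PLM. Ednrb, an endothelin receptor gene, was 26.01, 23.66 and 12.28 TPM in JA, 28.94, 32.58 and 23.33 TPM in SNI and 11.13, 10.73 and 11.58 TPM in PLM. Adora2b, an adenosine receptor gene, was 5.63, 3.51 and 2.68 TPM in JA, 6.22, 6.08 and 4.98 TPM in SNI and 2.36, 1.52 and 2.08 TPM in PLM. Their log2 fold changes over both injured groups were -0.16 (SE 0.26), -0.14 (SE 0.19) and -0.10 (SE 0.17), each with a positive value in SNI and a negative one in PLM.

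Tacr1, the substance P receptor gene of dorsal horn projection neurons, was 1.67, 0.99 and 0.49 TPM in JA, 2.40, 1.23 and 1.42 TPM in SNI and 0.34, 0.42 and 0.43 TPM in PLM (-0.05, SE 0.19). Hrh1, a histamine receptor gene, was below the filter, at 1.06, 0.51 and 0.28 TPM in JA, 1.68, 1.73 and 1.24 TPM in SNI and 0.35, 0.31 and 0.28 TPM in PLM. In all 5 genes the SNI mean lay above the sham mean and the PLM mean below it.

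The wider list of calcium signalling receptors and effectors had a median of 0.02, with 3 of 46 members higher and 1 lower at an unadjusted p under 0.05. Without JA 1 the median was 0.12 with 7 higher and 1 lower, and without JA 3 it was -0.00 with 2 higher and 4 lower. Calm2, a calmodulin gene, did not overlap between groups, at 483.33, 368.59 and 423.50 TPM in JA, 557.93, 497.05 and 607.04 TPM in SNI and 508.50, 530.05 and 488.61 TPM in PLM. Its log2 fold change was 0.33 (SE 0.10), at 0.26 in SNI and 0.39 in PLM. The serotonin receptor genes Htr2c (0.29, SE 0.09) and Htr2a (0.37, SE 0.16) were also higher, and the phospholipase gene Plcb3 was lower by 0.21 (SE 0.09).

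Glycerophospholipid enzymes had a median of -0.07, with 28 of 42 lower, and 3 lower and 1 higher at an unadjusted p under 0.05. The median was 0.01 in SNI, where 24 of 42 were higher, and -0.12 in PLM, where 12 of 42 were. Over both groups the median was -0.03 without JA 2, and without JA 1 it was -0.03 with 5 higher and 5 lower at that p. Pcyt2, the rate-setting enzyme of phosphatidylethanolamine synthesis, was lower without overlap after centring (-0.18, SE 0.05), at 66.73, 56.43 and 54.79 TPM in JA, 61.51, 56.30 and 57.59 TPM in SNI and 43.86, 47.77 and 46.21 TPM in PLM. In TPM the SNI cords lay within the sham range, so the separation was seen only after centring. Tmem189, which forms the vinyl ether bond of plasmalogens, was lower by 0.33 (SE 0.08), Agpat4, an acyltransferase gene, was lower by 0.14 (SE 0.05), and Cept1, which completes phosphatidylcholine and phosphatidylethanolamine, was higher by 0.18 (SE 0.07). Cholesterol synthesis genes were lower at 19 of 23 members with a median of -0.12, and 2 had an unadjusted p under 0.05, namely Cyp51 (-0.21, SE 0.08) and Mvd (-0.14, SE 0.06). The lower members at that p numbered 0 without SNI 1 and 4 without JA 1, and the median was -0.07 without JA 3.

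Oligodendrocyte and central myelin genes were lower at 18 of 19 members, 4 of them at an unadjusted p under 0.05, with a median of -0.11 that was -0.21 in SNI and -0.02 in PLM. Gjb1, the connexin-32 gene of oligodendrocytes, was 209.76, 222.80 and 186.90 TPM in JA, 190.03, 181.84 and 175.56 TPM in SNI and 137.33, 141.53 and 157.66 TPM in PLM. Its log2 fold change of -0.34 (SE 0.06) was shared by SNI (-0.30) and PLM (-0.37), with a limma adjusted p of 0.561. Cnp, a myelin phosphodiesterase gene, was 1229.87, 1329.90 and 1201.96 TPM in JA, 1233.73, 1134.42 and 1024.19 TPM in SNI and 939.06, 976.48 and 1071.66 TPM in PLM (-0.24, SE 0.07). Mag, an adhesion molecule of the inner myelin layer, was 709.20 to 798.17 TPM in JA and 619.23 to 719.55 TPM in the injured cords (-0.18, SE 0.06).

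Each of Gjb1, Cnp and Mag lay below all shams in 5 of 6 injured cords in TPM and in all 6 after centring. Without JA 2 the list median was -0.06, with 3 members at a p under 0.05 (15.8%, against 2.54% of all loci), and without JA 1 it was -0.18 with 9 members (47.4% against 4.63%). Of the precursor genes, Enpp6, a marker of newly forming oligodendrocytes, was 35.01, 31.79 and 36.25 TPM in JA, 23.42, 40.24 and 19.86 TPM in SNI and 16.46, 15.10 and 19.39 TPM in PLM (-0.67, SE 0.20). SNI 2 was above every sham. The precursor list median was -0.02, and 1 of 13 members was lower at an unadjusted p under 0.05. This median was 0.05 without JA 2 and -0.10 without JA 3.

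Meningeal, fibroblast and extracellular matrix genes were lower at 20 of 21 members, 8 of them at an unadjusted p under 0.05 against 3.59% of all loci, with medians of -0.52 for both injured groups, -0.33 in SNI and -0.63 in PLM. Bgn, the proteoglycan gene biglycan, was the member without overlap after centring, with 5 of 6 injured cords below every sham in TPM, at 34.74, 40.23 and 36.73 TPM in JA, 26.59, 35.03 and 30.28 TPM in SNI and 19.37, 19.56 and 26.61 TPM in PLM (-0.52, SE 0.12). Igf2, a growth factor gene of leptomeninges, was 53.32, 55.01 and 33.66 TPM in JA, 34.22, 41.42 and 31.37 TPM in SNI and 21.67, 19.37 and 24.39 TPM in PLM (-0.71, SE 0.15). Aebp1, a collagen-binding matrix protein gene, was 24.55, 22.10 and 20.24 TPM in JA, 19.17, 24.84 and 22.62 TPM in SNI and 8.26, 9.43 and 8.77 TPM in PLM. The SNI values of Aebp1 lay on both sides of the sham range, from below its lowest to above its highest value, and its log2 fold change of -0.62 (SE 0.09) was -0.13 in SNI and -1.12 in PLM. The fibulin gene Fbln1 was likewise lower mainly in PLM (-0.74 against -0.13).

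At 9 of 21 matrix genes all PLM cords were below all shams, as at 6.65% of all loci, and at 2 of 21 all SNI cords were, as at 7.22% of all loci. Without JA 3 the median was -0.30, with 7 members at a p under 0.05 (33.3%, against 4.56% of all loci). The count was 5 without JA 2, 12 without JA 1 and 13 without SNI 2 (61.9%, against 3.79% of all loci). JA 3 held the highest sham value of both the matrix and the Schwann list means (5.253 and 5.905 log2 units), and SNI 2 the highest injured value of both (5.002 and 5.213), whereas JA 2 had the lowest Schwann value (2.321) and not the lowest sham matrix value (4.788, against 4.609 in JA 1). The part of attached root and meninges in the matrix values was not tested.

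Endothelial and mural genes had a median of -0.13, with 20 of 21 lower and 1 at an unadjusted p under 0.05. The median became 0.05 without JA 2, with 0 lower members at that p. Without JA 1 it was -0.22 with 5 (23.8%, against 4.63% of all loci). Cldn5, the tight junction gene of brain endothelium, was 248.65, 314.50 and 251.66 TPM in JA, 200.18, 219.38 and 207.53 TPM in SNI and 218.80, 261.70 and 261.29 TPM in PLM. It was lower in SNI (-0.49) and at the sham level in PLM (-0.00). Ependymal and cilia genes were lower at 16 of 19 members with a median of -0.13, and Rarres2, the chemerin gene, was the member at an unadjusted p under 0.05 (-0.41, SE 0.13). The ependymal median was -0.35 without JA 1, -0.02 without JA 2, where 10 of 19 were lower, and -0.02 without SNI 1, where 12 were. No Schwann or blood cell gene reached that p, and their medians changed sign when 1 sham cord was left out.

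Immediate early genes, which report recent activity or handling, had a median of 0.19 with 17 of 21 higher and 1 at an unadjusted p under 0.05. Without JA 3 the median was 0.37 with 5 members (23.8%, against 5.17% of all loci) at that p, and without JA 1 it was 0.12 with 0. Dusp1, a MAP kinase phosphatase gene, was 39.73, 19.67 and 55.82 TPM in JA, 55.02, 104.55 and 79.15 TPM in SNI and 86.77, 38.56 and 62.86 TPM in PLM (0.92, SE 0.38). The groups overlapped, and Nr4a1 ran from 4.73 to 19.67 TPM in JA and from 8.17 to 38.64 TPM in the injured cords. Of the glucocorticoid-induced genes (median 0.04, 2 of 18 lower at an unadjusted p under 0.05), Angptl4, a lipoprotein lipase inhibitor gene, was 17.18, 23.10 and 17.33 TPM in JA, 13.75, 11.37 and 14.54 TPM in SNI and 12.63, 15.72 and 15.30 TPM in PLM (-0.43, SE 0.12). All injured cords were below sham in TPM and 4 of 6 after centring. The median of the list was 0.15 without JA 3 and -0.03 without SNI 3.

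Heat shock and chaperone genes had a median of 0.07, with 3 of 22 higher and 1 lower at an unadjusted p under 0.05. The higher count was 0 without SNI 3 and without PLM 2, and the median was 0.03 without JA 2 and 0.14 without JA 3. The chaperones Hsph1 (0.18, SE 0.07) and Hspd1 (0.21, SE 0.09) were higher, and Pdia4, a disulphide isomerase gene of the endoplasmic reticulum, was lower without overlap after centring (-0.20, SE 0.06). The 50 cytosolic ribosomal protein loci had a median of -0.04, which joined -0.19 in SNI, where 4 of 50 were higher, and 0.12 in PLM, where 45 of 50 were, and it turned to 0.08 without JA 3. Of these loci 1 was lower at an unadjusted p under 0.05. The median was 0.08 for 37 nuclear-encoded respiratory chain loci, among which 1 was higher at that p, Cycs, the cytochrome c gene (0.20, SE 0.08). Without JA 2 this median was 0.01 with 21 of 37 higher, and without JA 3 it was 0.11 with 6 higher members at that p. Hox genes, which mark position along the cord, had a median of 0.03, with 2 of 22 higher and 1 lower at that p, and the median was 0.00 without JA 2. Hoxd8 was lower without overlap after centring (-0.21, SE 0.06), at 9.68 to 10.83 TPM in JA and 7.78 to 10.35 TPM in the injured cords, and Hoxd9 was higher by 0.22 (SE 0.08).

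The circadian clock list had a median of 0.08 over 18 genes, of which 3 were higher and 1 lower at an unadjusted p under 0.05. The median was 0.02 without JA 3, with 2 higher and 2 lower at that p. The clock is a loop in which CLOCK and the Arntl product BMAL1 bind E-boxes (CACGTG) and drive Nr1d1, Nr1d2 and Dbp, and the Nr1d1 and Nr1d2 proteins bind ROR elements and repress Arntl. The 4 genes at that p were those of this loop. To show the elements, 2 promoters are printed from RefSeq on build GRCr8, each from 250 bases before to 50 after a start site, 5′ to 3′ on the strand of the gene, in lower case. Capitals mark CACGTG and AGTAGGTNA, the form of the ROR element in the Arntl promoter shown, searched on both strands, and the motifs do not overlap. The Arntl promoter (RefSeq symbol Bmal1) lies at chr1:176766078-176766377 on the + strand, and the second Nr1d1 start site has its promoter at chr10:84229405-84229704 on the - strand.
Arntl: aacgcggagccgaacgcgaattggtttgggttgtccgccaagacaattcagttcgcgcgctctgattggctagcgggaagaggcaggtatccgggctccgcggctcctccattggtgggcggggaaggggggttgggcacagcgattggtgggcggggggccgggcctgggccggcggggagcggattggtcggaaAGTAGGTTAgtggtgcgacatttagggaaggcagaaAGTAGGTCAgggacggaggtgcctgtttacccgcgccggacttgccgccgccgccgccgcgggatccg
Nr1d1: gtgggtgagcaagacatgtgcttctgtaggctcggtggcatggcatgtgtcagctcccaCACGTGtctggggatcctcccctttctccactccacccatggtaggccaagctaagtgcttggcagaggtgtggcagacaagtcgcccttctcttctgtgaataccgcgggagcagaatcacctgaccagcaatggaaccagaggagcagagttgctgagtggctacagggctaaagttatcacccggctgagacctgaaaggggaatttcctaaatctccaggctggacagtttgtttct
AGTAGGTNA occurred 2 times in the Arntl promoter, and 202 of 33469 promoters of this length (0.604%) held it at least 1 time. This run spells the Arntl sites themselves, so finding it there is not a test of the loop. Other forms of the ROR element were not searched. CACGTG occurred 1 time in the Nr1d1 promoter shown and in 2148 of 33469 promoters (6.42%). The windows of Nr1d2, of Dbp and of the other Nr1d1 start held neither run of letters, which describes these windows only.

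Nr1d2 was 11.01, 10.13 and 11.06 TPM in JA, 13.45, 13.97 and 12.11 TPM in SNI and 14.89, 15.23 and 18.53 TPM in PLM. All injured cords exceeded all shams in TPM and 5 of 6 after centring, and the log2 fold change of 0.41 (SE 0.08, limma adjusted p = 0.561) was 0.15 in SNI and 0.67 in PLM. Nr1d1 was 17.17, 11.43 and 10.45 TPM in JA, 21.44, 17.75 and 15.06 TPM in SNI and 20.83, 19.88 and 20.57 TPM in PLM (0.55, SE 0.13). Its annotated span overlaps that of Thra on the other strand, and the counting is not stated to use strand, so reads of these 2 genes may be mixed.

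Dbp, a transcription factor gene driven by the clock, was 40.49, 45.46 and 32.16 TPM in JA, 49.63, 42.58 and 43.99 TPM in SNI and 58.65, 55.98 and 57.02 TPM in PLM. Its log2 fold change was 0.38 (SE 0.09), of which SNI showed 0.09 and PLM 0.67. Arntl was 11.33, 9.33 and 8.85 TPM in JA, 11.23, 10.92 and 9.22 TPM in SNI and 5.13, 6.26 and 5.42 TPM in PLM (-0.31, SE 0.08), at -0.04 in SNI and -0.59 in PLM. In these 4 genes every PLM cord stood outside the sham range in TPM. The SNI cords overlapped with sham for Nr1d1, Dbp and Arntl and lay above it in TPM for Nr1d2, and for Nr1d1 the highest SNI cord, at 21.44 TPM, was above every PLM cord. The limma adjusted p of PLM against SNI was 0.117 for Nr1d2, 0.261 for Nr1d1, 0.127 for Dbp and 0.117 for Arntl. Since the hour of collection is not given, time of day and group cannot be told apart.

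**Figure D5:**
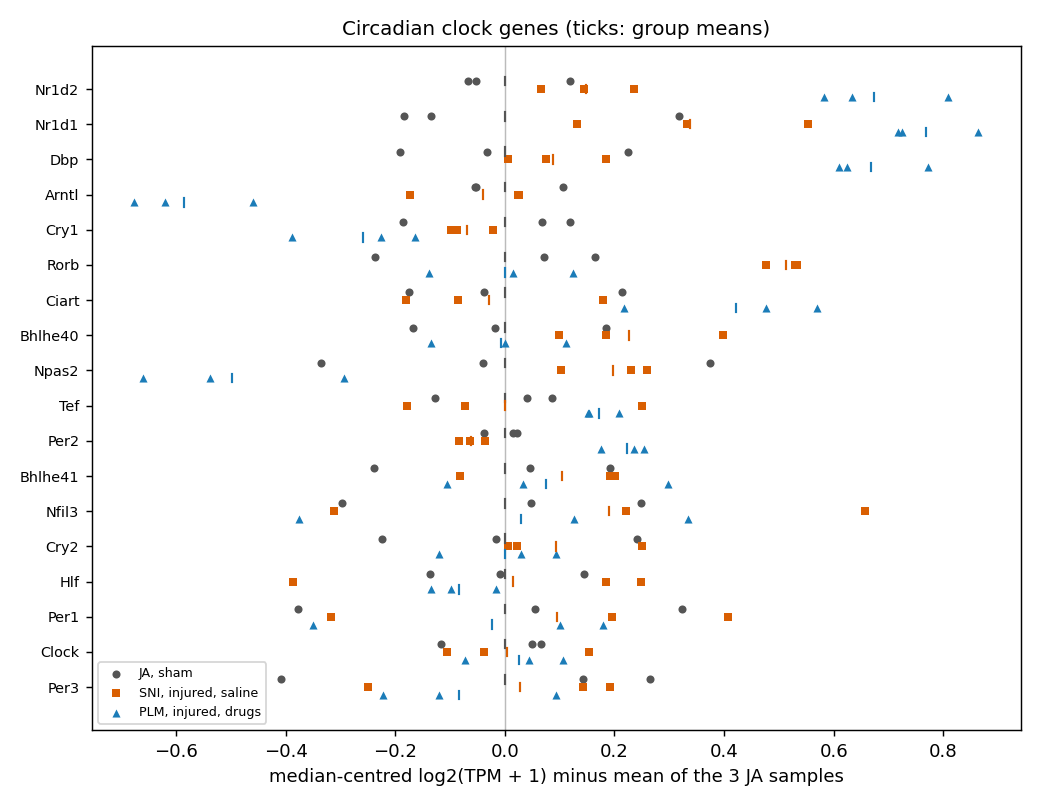
Median-centred log2(TPM + 1) of the 18 circadian clock genes tested, minus the mean of the 3 sham samples, with points for samples and ticks for group means. The PLM samples lie outside the sham samples for Nr1d2, Nr1d1, Dbp and Arntl, and the SNI mean lies between the sham and PLM means in these 4 genes, closest to sham for Dbp and Arntl.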

How the data were processed

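Total RNA of the ipsilateral lumbar cord was sequenced on 1 library per rat. The submitters' processing notes name CASAVA, fastp version 0.19.5, StringTie and a human genome build, although the identifiers are rat Ensembl genes. The methods of the study name HISAT2 and DESeq2, and the rat build is not given in the sources used here. The authors deposited 1 table of TPM values to 2 decimals for 9 samples. TPM keeps no read depth, so depth, counting error and the limit behind a value of 0 are unknown, and count tests were not used. The sample labels give liquiritin as 3.98, 3.99 and 3.100 mg/ml for the PLM replicates, whereas the methods give 3.98 mg/ml for the group.

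Loci averaging 1 TPM or more across all 9 samples were put on the log2(TPM + 1) scale, which understates fold changes of low genes, and each sample was centred on its median. limma version 3.58.1 (R version 4.3.3) with a variance trend fitted the 3 group means, so SNI and PLM had separate terms. The mean of SNI and PLM was contrasted with JA, so any difference made by the drugs enters through PLM. Errors are SEs of this contrast. Calls needed a Benjamini-Hochberg adjusted p under 0.05 over all 15503 loci and the same sign in both injured groups. Named genes had a symbol listed once, at least 1 TPM in the higher group, no overlap of 6 injured and 3 sham samples after centring and an absolute log2 fold change of at least 0.5, up to 15 a side by p. Genes the study measured, known injury genes and up to 4 members of each list by p could be added, of which the text gives a part, and 3 genes are not reported here. The members and the 34 lists were chosen with earlier results of these data known. Calling was run on simulated data with only large changes at well-expressed loci and independent noise. This simulation does not cover the smaller differences described here. Alternatives were other pseudocounts, filters, scalings and drug terms, sample weights, the replicate block and leaving out each sample. Promoter sequences came from RefSeq (GRCr8).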

Additional observations from a re-analysis of the deposited data

How the results depend on the processing

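The 28 genes chosen for no overlap kept their sign in each alternative that could be run for them (18 to 20), which the choice of genes largely fixes when a sample is left out. In limma, 2 of them passed an adjusted p of 0.05 in 1 alternative each, AABR07032904.1 without SNI 2 (adjusted p = 0.0394) and AABR07041963.1 without JA 2 (adjusted p = 0.0107). Leaving out 1 sample at a time gave 0 to 4 higher and 0 to 3 lower loci at an adjusted p under 0.05, all of them unnamed gene models, assembled loci or small nuclear RNAs. It gave 280 to 938 higher and 393 to 717 lower loci at an unadjusted p under 0.05, with the lowest counts without JA 2 and the highest without JA 1. It gave 27 to 55 higher and 32 to 60 lower loci past the thresholds of the paper, with the highest counts without JA 3 and without JA 1. Counts of loci without overlap ran from 254 to 998 above sham and from 259 to 730 below, and fewer samples make separation easier. On values as deposited, not centred, 125 loci lay above and 125 below, and 87 of the 419 loci of the main analysis were among them. With the drug as a 0/1 covariate, which leaves SNI against JA, 349 loci were higher at an unadjusted p under 0.05. The thresholds of the paper gave 43 higher loci at a pseudocount of 0.1, and 12 higher and 7 lower loci among those with at least 1 TPM in every sample. The cause was not tested.

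Samples share only a replicate number. The deviations of same-numbered samples from their group means correlated at -0.0461 to 0.126, and the replicate block gave 0 loci at an adjusted p under 0.05, 581 higher and 586 lower loci at an unadjusted p under 0.05, and 33 higher and 43 lower loci past the thresholds of the paper.

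The sign of the following values changed. With the drug as a 0/1 covariate the log2 fold change was 0.281 for Tacr1, 0.368 for Adora2b, 0.366 for Ednrb, 0.454 for Agt, -0.0511 for Vip, -0.0646 for Gap43, 0.17 for RT1-Da, 0.0445 for Axl, 0.0574 for Aldh1l1 and 0.0916 for Aqp4. Sample weights, added after seeing the data, gave 0.0377 for Npy and -0.0499 for Cd74, and quantile normalization gave -0.00294 for Cd74. Leaving out 1 sample moved Tacr1 between -0.224 and 0.00563, Adora2b between -0.251 and 0.0905, Ednrb between -0.419 and 0.00978, Agt between -0.531 and 0.116, Gal between -0.0616 and 0.111, Npy between -0.0821 and 0.0835, Vip between -0.0255 and 0.147, Gap43 between -0.0403 and 0.128, Cx3cr1 between -0.127 and 0.132, Cd74 between -0.361 and 0.22 and RT1-Da between -0.549 and 0.149. The Schwann cell genes Pmp2 (-0.508 to 2.43) and Dhh (-0.961 to 0.685) also changed sign. The median of 12 of 34 lists changed sign in at least 1 alternative. The read depth is unknown.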

Other observations

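Dorsal horn neuropeptide and opioid genes, which include the transmitters of primary afferents and their receptors, were centred near the sham level, with a median of -0.03 on the log2 scale. Of 23 members tested, 11 were higher and 12 lower on average, none had an unadjusted p under 0.05 in limma, and the smallest was 0.0655. No member passed an adjusted p of 0.05. Without JA 1, 1 of 20 was higher and 2 lower at an unadjusted p under 0.05 (5% and 10%, against 6.06% and 4.63% of all loci). The median of this list was 0.02 without JA 3, and it was also positive without SNI 2 and without PLM 2. The 13 mitochondrially encoded protein genes had a median of -0.04 over both injured groups, which joined -0.34 in SNI, where all 13 were lower than sham on average, and 0.25 in PLM, where all 13 were higher. Without JA 2 the median over both was 0.06. Without JA 1 it was -0.20 with all 13 lower, 1 of them at an unadjusted p under 0.05 (7.69%, against 4.63% of all loci). Their share of all TPM in PLM lay within the JA range, and so did that of SNI 2. With all samples none had an unadjusted p under 0.05 for the injury contrast.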
